A study of Mus musculus with 2 samples.

Results

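The genes described here encode the machinery of oxidative phosphorylation, the respiratory chain and ATP synthase of the mitochondrial inner membrane. They were taken by symbol, as every gene whose name starts with Ndufa, Ndufb, Ndufc, Ndufs or Ndufv and a number, Uqcr, Cox4 to Cox8 or Atp5, the genes Sdha to Sdhd, and the mitochondrially encoded mt-Nd, mt-Co, mt-Cytb and mt-Atp genes. Of 27998 gene identifiers, 97 matched, and the 90 with at least 50 UMIs over both matrices are the members. A UMI is a short tag that marks a single captured RNA molecule. Of the members, 77 are encoded in the nucleus and 13 in mitochondrial DNA. The rule uses a minimum count summed over both libraries and no difference between them.

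The material was mouse MLL-AF9 leukaemia cells that carry Cas9, a nuclease directed by a single guide RNA (sgRNA). MLL-AF9 is a fusion oncoprotein of acute myeloid leukaemia. In the Jumonji library the sgRNA targeted the Jumonji domain of JMJD1C, a member of a family of histone demethylases. In the Renilla library it targeted Renilla luciferase, a control with no target in the mouse genome. Both cultures carried MLL-AF9 and Cas9 and grew in RPMI with 10% FBS, 1% P/S and mouse interleukin-3 at 10 ng/ml. Each sgRNA had 1 library, so the differences below have no replicate check and were not tested. The number of guides and whether the cells are 1 clone are not stated by the labels.

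Electrons from NADH enter the chain at complex I and those from succinate at complex II. They pass through complex III to complex IV, which reduces oxygen, while complexes I, III and IV pump protons that drive ATP synthesis by complex V. Complexes I, III, IV and V are built from subunits of both genomes, the mitochondrial ones made inside the organelle, and complex II from nuclear subunits alone.

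After filtering, 575 Jumonji cells held 12809661 UMIs, with a median of 22123 per cell, and 608 Renilla cells held 14418743 UMIs, with a median of 23528. The libraries shared 0 cell barcodes. Barcodes above 10% mitochondrial UMIs were left out, 77 of 652 in the Jumonji library (11.8%, 95% exact interval 9.43% to 14.5%) and 43 of 651 in the Renilla library (6.61%, 4.82% to 8.79%). Jmjd1c had 112 CPM in Jumonji cells and 140 CPM in Renilla cells, which gives a level and does not check the edit. CPM is a gene's UMIs divided by all UMIs of its library and put on one scale for both libraries. The cells differed in myeloid markers, a difference whose part in the values below was not tested. The 7 maturation genes Lyz2, Lgals3, Csf1r, S100a8, S100a9, Ctss and Wfdc17 summed to 1773 CPM in Jumonji and 243 CPM in Renilla cells. A list of 8 monocyte and macrophage markers, which includes Lyz2, Csf1r and Ctss, differed less, at 778 CPM in Jumonji and 568 CPM in Renilla cells. A list of 6 stem and progenitor cell markers was also higher in Jumonji cells, at 634 CPM against 390 CPM in Renilla cells. The 5 primary granule genes Mpo, Ctsg, Ms4a3, Elane and Prtn3 summed to 1808 CPM in Jumonji and 5221 CPM in Renilla cells. Of 8 neutrophil markers, which summed to 922 CPM in Jumonji and 148 CPM in Renilla cells, 1 was at 0 in each library. The erythroid list summed to 0.625 CPM in Jumonji and 1.46 CPM in Renilla cells, with 4 of 6 markers at 0 in each, and the stromal list to 19.4 CPM in Jumonji and 13.8 CPM in Renilla cells.

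The mitochondrially encoded transcripts stood lower in the Jumonji library, and the nuclear encoded ones nearly level. The 13 mitochondrial genes summed to 27863 CPM in Jumonji cells and 34949 CPM in Renilla cells. The log2 ratio, Jumonji over Renilla, was -0.33 (95% interval -0.33 to -0.32). The 77 nuclear genes summed to 26820 CPM in Jumonji cells and 28421 CPM in Renilla cells, a log2 ratio of -0.08 (-0.09 to -0.08). The nuclear encoded set thus took 2.68% of Jumonji UMIs and 2.84% of Renilla UMIs, and the mitochondrial set 2.79% of Jumonji UMIs and 3.49% of Renilla UMIs. Each nuclear UMI was accompanied by 1.04 mitochondrial UMIs in Jumonji cells and by 1.23 in Renilla cells. This ratio needs no scaling to a library total, and its log2 difference was -0.24 (-0.25 to -0.23). It does depend on the cell filter, which uses the mitochondrial share itself. With all deposited barcodes the difference was -0.14, and the log2 ratio of the mitochondrial sum was -0.23. All intervals cover counting error only and not how cells, cultures or guides vary. In pooled sums of this kind, fewer cells of a type and less RNA per cell cannot be told apart, and the values by state are given further on.

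**Figure D1:**
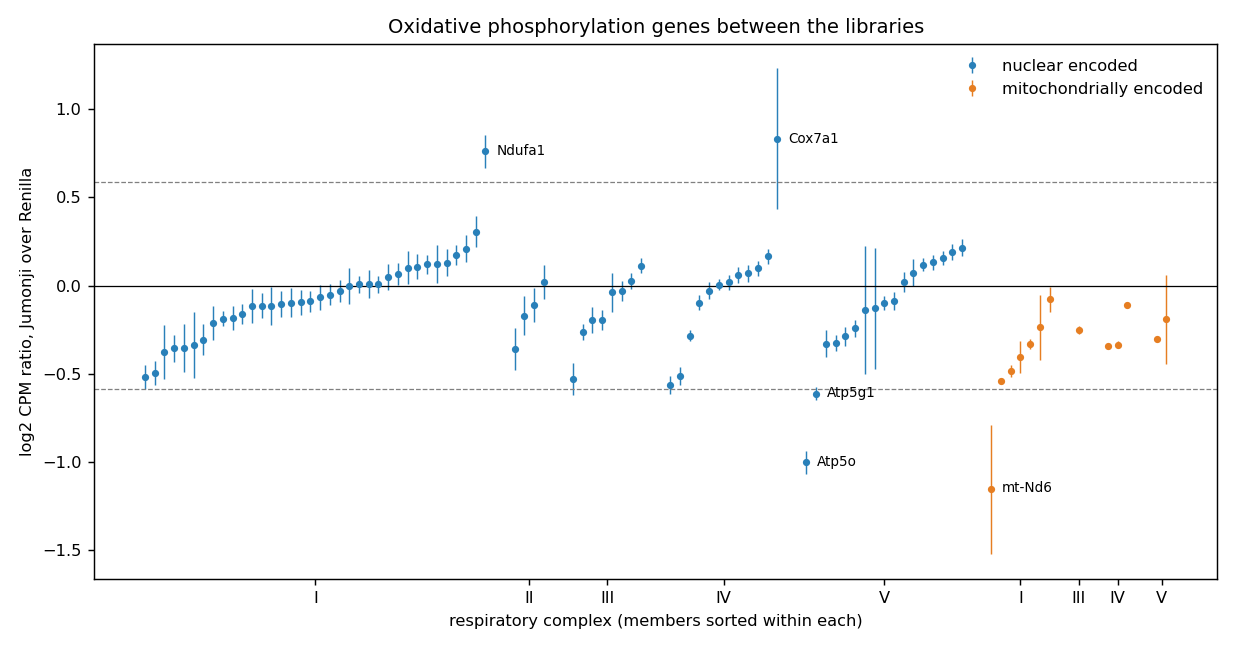
Log2 ratio of CPM, Jumonji over Renilla, for the 90 members, sorted within each complex, nuclear encoded at left and mitochondrially encoded at right; bars are 95% counting intervals and dashed lines mark 1.5-fold. All 13 mitochondrial genes sit below 0, most nuclear genes lie between the dashed lines on both sides of 0, and the 5 members past a dashed line are named.

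Few members were far apart between the libraries. They are set beside all 9964 genes with at least 50 UMIs over both matrices and, since 85 of the 90 members have at least 1000 UMIs, beside the 3385 genes at that level, where counting error is smaller. At least 1.5-fold higher in Jumonji cells were 2 members, Ndufa1 and Cox7a1 (2.22%), against 11.1% of all genes. Of the 85 abundant members 1 was higher by this much (1.18%), against 8.54% of the abundant genes. At least 1.5-fold lower were 3 members, Atp5o, Atp5g1 and mt-Nd6 (3.33%), against 9.09% of all genes. Of the 85 abundant members 2 were lower by this much (2.35%), against 4.08% of the abundant genes. At least 1.25-fold lower were 21 members (23.3%), 14 nuclear and 7 mitochondrial, against 24.5% of all genes. The 14 nuclear ones are 18.2% of the nuclear members. Of the 85 abundant members 20 were lower by this much (23.5%), against 18% of the abundant genes. At least 1.25-fold higher were the same 2 members (2.22%), against 20.6% of all genes. Of the abundant members 1 was higher by this much (1.18%), against 18.2% of the abundant genes. At 2-fold, 2 members were lower (Atp5o and mt-Nd6, 2.22%), against 2.09% of all genes. Of the 85 abundant members 1 was lower at 2-fold (1.18%), against 0.473% of the abundant genes. At 2-fold 0 members were higher, against 5.54% of all genes and 3.37% of the abundant ones. Atp5o lay at this limit and fell short of 2-fold under 5 of 9 alternatives, and mt-Nd6 under 1. The median log2 ratio was -0.09 over the nuclear members and -0.33 over the mitochondrial ones, beside -0.06 over the 9964 genes and -0.03 over the 3385 abundant ones. The interquartile range of the nuclear members was 0.28, beside 0.56 over the 9964 genes and 0.45 over the abundant ones. Below 0 were 46 of 77 nuclear and 13 of 13 mitochondrial members, beside 56.0% of the 9964 genes. With a median-of-ratios size factor in place of the library total, every ratio is 0.06 higher. Below 0 were then 40 nuclear and 13 mitochondrial members. The median over the 9964 genes was then -0.0001, and their share below 0 was not counted under this setting. With all deposited barcodes 1 mitochondrial member, mt-Nd3, was above 0, at 0.03.

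By complex, the nuclear sums differed little and the mitochondrial sums were lower in each. The nuclear subunits of complex I summed to 8404 CPM in Jumonji and 8726 CPM in Renilla cells, a log2 ratio of -0.05, which is 0.00 with the median-of-ratios size factor. Complex II, which has no mitochondrial subunit, was at 425 CPM in Jumonji and 467 CPM in Renilla cells (-0.13). Nuclear complex III was at 2977 CPM in Jumonji and 3164 CPM in Renilla cells (-0.09). Nuclear complex IV was at 7334 CPM in Jumonji and 7756 CPM in Renilla cells (-0.08), and nuclear complex V at 7679 CPM in Jumonji and 8308 CPM in Renilla cells (-0.11). The mitochondrial subunits of complex I summed to 6310 CPM in Jumonji and 8760 CPM in Renilla cells, a log2 ratio of -0.47 (-0.49 to -0.46). Those of complex III were at -0.25, of complex IV at -0.27 and of complex V at -0.30. The mitochondrial over nuclear ratio within complex I was 0.751 in Jumonji and 1.00 in Renilla cells, a log2 difference of -0.42 (-0.44 to -0.40). The same difference was -0.16 in complex III, -0.19 in complex IV and -0.19 in complex V. Of these 4 complexes, complex I had the widest difference of this ratio between the libraries.

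Complex I holds the most members. Ndufa4, the most abundant of those named Nduf and in later work placed with complex IV, had 613 CPM in Jumonji and 699 CPM in Renilla cells (-0.19). Counted with complex IV, it leaves complex I at -0.04 and brings the nuclear sum of complex IV to -0.09. Ndufb7, an accessory subunit that faces the intermembrane space, was level at 494 CPM in Jumonji and 492 CPM in Renilla cells (0.01, interval -0.04 to 0.06). The 7 nuclear core subunits, which bind the flavin, iron-sulfur clusters and the quinone site, summed to 946 CPM in Jumonji and 1016 CPM in Renilla cells (-0.10). The 29 accessory subunits were at 7458 CPM in Jumonji and 7710 CPM in Renilla cells (-0.05).

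The lowest ratios among nuclear complex I genes were those of 2 accessory subunits. Ndufb10, of the membrane arm, had 223 CPM in Jumonji and 319 CPM in Renilla cells (-0.52, -0.59 to -0.45). Ndufs6, which sits near the NADH-binding module, had 206 CPM in Jumonji and 291 CPM in Renilla cells (-0.50, -0.57 to -0.43). The highest were Ndufa1 and Ndufa3, small accessory subunits of the membrane domain. Ndufa3 had 164 CPM in Jumonji and 132 CPM in Renilla cells (0.31, 0.22 to 0.40).

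Ndufa1 stood apart from every other nuclear complex I gene. It had 2379 UMIs or 186 CPM in Jumonji cells and 1580 UMIs or 110 CPM in Renilla cells, a log2 ratio of 0.76 (0.67 to 0.85). It was detected in 94.4% of Jumonji and 89.8% of Renilla cells. The gene lies on chromosome X (37187588 to 37191163, minus strand, mm10, GENCODE M21). Its measured neighbours on the lower side, Nkap at -0.11, Upf3b at -0.09 and Rpl39 at 0.19, differed less. On the higher side, Zbtb33 was at -0.53, Lamp2 at 0.88 and Cul4b at -0.05. These genes on the higher side lie farther off, starting at 38189793, 38401357 and 38533274 in that order. Zbtb33 had few UMIs, 51 in Jumonji and 83 in Renilla cells. The neighbours were looked up after the values of Ndufa1 were seen.

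In complex II, the membrane anchor Sdhc was lowest, at 76.7 CPM in Jumonji and 98.2 CPM in Renilla cells (-0.36, -0.48 to -0.24). Sdha, the flavoprotein that oxidises succinate, was at 93.2 CPM in Jumonji and 105 CPM in Renilla cells (-0.17). Sdhd, the other anchor, was at 127 CPM in Jumonji and 137 CPM in Renilla cells (-0.11). Sdhb, the iron-sulfur subunit, was at 128 CPM in Jumonji and 127 CPM in Renilla cells (0.02, -0.08 to 0.12), within counting error.

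In complex III, the core protein Uqcrc1 was lowest, at 126 CPM in Jumonji and 182 CPM in Renilla cells (-0.53, -0.62 to -0.44). Uqcrc2, the other core protein, was at 97.7 CPM in Jumonji and 100 CPM in Renilla cells (-0.04, -0.15 to 0.07). Together with the Rieske iron-sulfur protein Uqcrfs1, they summed to 429 CPM in Jumonji and 517 CPM in Renilla cells (-0.27). The small subunits were higher in level. Uqcrb had 699 CPM in Jumonji and 646 CPM in Renilla cells (0.11, 0.07 to 0.16), and Uqcrh, the hinge protein, 598 CPM in Jumonji and 588 CPM in Renilla cells (0.03). Uqcrq, another small subunit, had 509 CPM in Jumonji and 610 CPM in Renilla cells (-0.26, -0.31 to -0.22). Mitochondrial mt-Cytb, the cytochrome b of this complex, had 2235 CPM in Jumonji and 2661 CPM in Renilla cells (-0.25, -0.27 to -0.23).

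In complex IV, Cox4i1 was the most abundant nuclear member of all, at 1292 CPM in Jumonji and 1288 CPM in Renilla cells, and was level (0.00, -0.03 to 0.03). Cox8a, a small membrane subunit, came next in both libraries and had 964 CPM in Jumonji and 1172 CPM in Renilla cells (-0.28, -0.32 to -0.25). Cox6a1, the ubiquitous form of subunit VIa, had 403 CPM in Jumonji and 596 CPM in Renilla cells (-0.56, -0.61 to -0.51). Cox7b had 364 CPM in Jumonji and 518 CPM in Renilla cells (-0.51, -0.57 to -0.46). Cox6c had 666 CPM in Jumonji and 594 CPM in Renilla cells (0.17, 0.12 to 0.21). Subunits of the same assembled complex thus lay on both sides of 0.

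The isoform families of complex IV were expressed almost wholly as the ubiquitous form. Cox7a1, the heart and muscle form of subunit VIIa, had 139 UMIs or 10.9 CPM in Jumonji and 88 UMIs or 6.10 CPM in Renilla cells (0.83, 0.43 to 1.23). It made up 1.62% of the Cox7a1 and Cox7a2 UMIs in Jumonji cells (exact interval 1.36% to 1.91%) and 0.928% in Renilla cells (0.745% to 1.14%). Cox7a2 itself was level at 660 CPM in Jumonji and 652 CPM in Renilla cells. Of the other tissue-restricted forms, Cox6a2 had 21 UMIs in Jumonji and 25 in Renilla cells, and Cox4i2 had 15 in Jumonji and 8 in Renilla cells. Cox6b2, Cox7b2, Cox8b and Cox8c had 0 UMIs in all barcodes, and Ndufa4l2 had 1 UMI. These 7 matched the symbols and fell below the count minimum.

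Complex V held the nuclear member with the lowest ratio. Atp5o, the subunit that ties the catalytic head to the peripheral stalk, had 2653 UMIs or 207 CPM in Jumonji cells and 5983 UMIs or 415 CPM in Renilla cells. Its log2 ratio was -1.003 (-1.07 to -0.94), and it was detected in 91.0% of Jumonji and 98.7% of Renilla cells. The other subunits of the stalk did not share this difference. Atp5f1 (subunit b) had 523 CPM in Jumonji and 451 CPM in Renilla cells (0.22, 0.17 to 0.27), the highest ratio in the complex. Atp5h (subunit d) was at 666 CPM in Jumonji and 608 CPM in Renilla cells (0.13), and Atp5j (coupling factor 6) at 826 CPM in Jumonji and 761 CPM in Renilla cells (0.12). The stalk as a sum was therefore level, at 2223 CPM in Jumonji and 2235 CPM in Renilla cells (-0.01).

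Atp5o lies on chromosome 16 (91925214 to 91931687, minus strand). Of its measured neighbours, Mrps6, a mitochondrial ribosomal protein gene on the higher side, was at -0.76 and Smim11 at -0.20. On the lower side Itsn1 was at 0.62, Cryzl1 at -0.05 and Donson at 0.44. GENCODE M21 also holds a read-through locus that overlaps Atp5o, so UMIs that fall on both are uncertain. These neighbours too were looked up after the values were seen.

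Atp5g1, Atp5g2 and Atp5g3 encode the same mature c subunit of the proton-driven ring behind different import peptides. Atp5g1 had 671 CPM in Jumonji and 1027 CPM in Renilla cells (-0.61, -0.65 to -0.57). Atp5g2 had 755 CPM in Jumonji and 807 CPM in Renilla cells (-0.10), and Atp5g3 had 185 CPM in Jumonji and 232 CPM in Renilla cells (-0.33). Summed, the ring transcripts were at 1611 CPM in Jumonji and 2066 CPM in Renilla cells, a log2 ratio of -0.36 (-0.38 to -0.33). Atp5g1 supplied 41.7% of these UMIs in Jumonji cells (41.0% to 42.4%) and 49.7% in Renilla cells (49.1% to 50.3%). Atp5g2 supplied 46.9% in Jumonji and 39.1% in Renilla cells. Over all cells, the most frequent ring transcript was thus Atp5g2 in Jumonji and Atp5g1 in Renilla cells. This order did not hold in every cell cluster described further on. In Jumonji cells Atp5g1 led in clusters 2 (44.6% against 43.4%), 4 and 5, and Atp5g2 in clusters 1, 3 and 6. In Renilla cells Atp5g2 led only in cluster 3, at 50.6% against 40.1% for Atp5g1. The paralogues are alike in the coding part, and the split of UMIs between them rests on their 3′ ends.

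In the catalytic head, Atp5b, the beta subunit, had 532 CPM in Jumonji and 666 CPM in Renilla cells (-0.32). Atp5a1, the alpha subunit, had 401 CPM in Jumonji and 490 CPM in Renilla cells (-0.29). Atp5c1, the rotating gamma subunit, was level at 394 CPM in Jumonji and 388 CPM in Renilla cells. Atp5e, the epsilon subunit, had 576 CPM in Jumonji and 505 CPM in Renilla cells (0.19). The head summed to 2362 CPM in Jumonji and 2593 CPM in Renilla cells (-0.13). The remaining membrane subunits Atp5j2, Atp5k and Atp5l summed to 1464 CPM in Jumonji and 1393 CPM in Renilla cells (0.07). Atp5s and Atp5sl match the symbol rule but are not structural subunits of the enzyme. Atp5s had 9.21 CPM in Jumonji and 10.1 CPM in Renilla cells, and Atp5sl 10.1 CPM in Jumonji and 11.1 CPM in Renilla cells, differences within counting error.

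The start regions of 4 of these genes are shown because their ratios are the farthest apart among abundant nuclear members (Ndufa1, Atp5o, Atp5g1) or because the gene is a partner of Atp5o in the stalk (Atp5j). Each runs from 250 bases before to 50 bases after the RefSeq start, read 5′ to 3′ on the gene's strand (GRCm38.p6). Capitals mark matches on either strand to the NRF1 core (CGCANGCG), the ETS family motif (CCGGAAG) and the YY1 motif (AAGATGGCG), factors known to bind many promoters of respiratory genes.
Ndufa1, chrX:37191189-37191488, minus strand: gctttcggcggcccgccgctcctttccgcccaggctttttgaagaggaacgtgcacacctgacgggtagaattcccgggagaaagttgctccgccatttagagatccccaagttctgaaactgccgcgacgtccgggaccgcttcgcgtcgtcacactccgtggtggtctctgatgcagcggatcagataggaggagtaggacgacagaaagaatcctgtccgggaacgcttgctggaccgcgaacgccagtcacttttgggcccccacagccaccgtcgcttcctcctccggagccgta
Atp5o, chr16:91931581-91931880, minus strand: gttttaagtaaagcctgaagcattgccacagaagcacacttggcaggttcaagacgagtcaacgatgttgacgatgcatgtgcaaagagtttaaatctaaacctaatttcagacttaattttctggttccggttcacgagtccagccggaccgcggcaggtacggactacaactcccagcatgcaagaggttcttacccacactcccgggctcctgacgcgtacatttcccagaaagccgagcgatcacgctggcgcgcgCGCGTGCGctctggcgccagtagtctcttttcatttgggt
Atp5g1, chr11:96075582-96075881, minus strand: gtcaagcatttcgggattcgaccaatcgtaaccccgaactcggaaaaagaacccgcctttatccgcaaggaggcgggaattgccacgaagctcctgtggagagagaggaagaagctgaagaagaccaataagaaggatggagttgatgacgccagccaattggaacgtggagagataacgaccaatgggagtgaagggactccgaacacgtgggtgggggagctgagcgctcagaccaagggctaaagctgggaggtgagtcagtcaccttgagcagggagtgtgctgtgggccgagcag
Atp5j, chr16:84834927-84835226, minus strand: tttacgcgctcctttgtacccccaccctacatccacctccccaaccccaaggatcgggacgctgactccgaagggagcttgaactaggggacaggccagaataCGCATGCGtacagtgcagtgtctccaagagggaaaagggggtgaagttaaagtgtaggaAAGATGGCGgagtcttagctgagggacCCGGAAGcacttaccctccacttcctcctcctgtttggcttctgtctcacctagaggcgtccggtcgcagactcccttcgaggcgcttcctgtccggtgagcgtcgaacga

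Atp5j was the member with all 3 motifs, in 1 of its 2 RefSeq start regions, and its ratio was 0.12. Atp5o held an NRF1 core, while Ndufa1 and Atp5g1 held none of the 3 motifs in these windows. Of the 77 nuclear members, 63 had a start region in the RefSeq table. The NRF1 core occurred in 25 of them (39.7%), against 9.22% of the 27025 genes in the table and 21.6% of the 7643 table genes with at least 50 UMIs. The ETS motif occurred in 16 members (25.4%), against 9.93% and 23.4% of those genes. The YY1 motif occurred in 7 members (11.1%), against 1.64% and 4.37%. The ETS and YY1 motifs can share 3 letters, and in these members no match overlapped. A match of letters is a description and not a binding site.

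The log2 ratios of the 13 mitochondrially encoded genes ranged from -1.15 to -0.08. The highest levels were those of mt-Atp6, at 6975 CPM in Jumonji and 8600 CPM in Renilla cells (-0.30), and mt-Co3, at 5310 CPM in Jumonji and 6741 CPM in Renilla cells (-0.34). mt-Atp6 codes for the proton channel of complex V and mt-Co3 for a core subunit of complex IV. Levels between genes also depend on how each 3′ end is captured, and UMIs are not scaled by length.

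The widest difference among the abundant ones was in complex I. mt-Nd1 had 3692 CPM in Jumonji and 5376 CPM in Renilla cells (-0.54, -0.56 to -0.53), and mt-Nd2 had 860 CPM in Jumonji and 1202 CPM in Renilla cells (-0.48, -0.52 to -0.45). Both are membrane subunits of complex I. mt-Nd4 was at 1367 CPM in Jumonji and 1722 CPM in Renilla cells (-0.33), and mt-Nd5 at 129 CPM in Jumonji and 171 CPM in Renilla cells (-0.41). mt-Nd3 was at 222 CPM in Jumonji and 234 CPM in Renilla cells (-0.08, -0.15 to -0.01), the smallest difference of the 13. It stood at 0.03 both with all deposited barcodes and as a mean over clusters. By cell cluster, described further on, it was above 0 in 5 of 6, and in 3 of the 4 large ones. mt-Nd4l was at 33.3 CPM in Jumonji and 39.3 CPM in Renilla cells (-0.24, -0.42 to -0.05).

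Complex IV was uneven. mt-Co1, the catalytic core with the site of oxygen reduction, had 3696 CPM in Jumonji and 3984 CPM in Renilla cells (-0.11, -0.13 to -0.09). mt-Co2, which takes electrons from cytochrome c, had 3317 CPM in Jumonji and 4183 CPM in Renilla cells (-0.33, -0.35 to -0.32). As a share of all mitochondrial member UMIs, mt-Co1 took 13.3% in Jumonji and 11.4% in Renilla cells, and mt-Nd1 took 13.3% in Jumonji and 15.4% in Renilla cells. The share of mt-Co3, at 19.1% in Jumonji and 19.3% in Renilla cells, was nearly the same.

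mt-Nd6 is the one member encoded on the light strand, and its messenger is known in human cells to lack a stable poly(A) tail, which this 3′ chemistry primes on. It had 88 UMIs or 6.87 CPM in Jumonji cells and 220 UMIs or 15.3 CPM in Renilla cells (-1.15, -1.52 to -0.79). It was seen in 13.0% of Jumonji and 28.0% of Renilla cells. mt-Atp8 was also low, at 18.2 CPM in Jumonji and 20.7 CPM in Renilla cells (-0.19, -0.44 to 0.06). mt-Atp8 and mt-Atp6 lie on a shared messenger and overlap over 43 bases (chrM:7927-7969, plus strand, mm10, GENCODE M21 transcripts), where the capitals mark the start codon of mt-Atp6.
mt-Atp8 and mt-Atp6 overlap: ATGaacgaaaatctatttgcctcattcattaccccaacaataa
Because the messenger is shared, the split between the 2 genes is uncertain. Their sum was 6993 CPM in Jumonji and 8620 CPM in Renilla cells (-0.30). mt-Nd4l and mt-Nd4 share a messenger in the same way, overlap by 7 bases and summed to 1400 CPM in Jumonji and 1761 CPM in Renilla cells (-0.33).

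**Figure D2:**
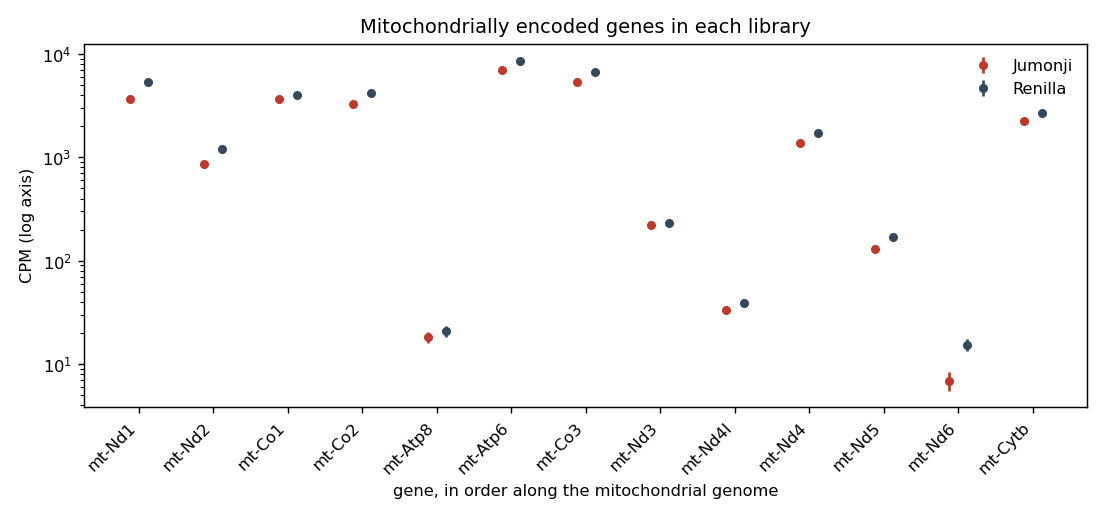
CPM of the 13 mitochondrially encoded members in each library on a log axis, in order along the mitochondrial genome, with 95% counting intervals (mostly smaller than the points). Every Jumonji point lies below its Renilla point, by most for mt-Nd6 (6.87 CPM in Jumonji and 15.3 CPM in Renilla cells) and by least for mt-Nd3 (222 CPM in Jumonji and 234 CPM in Renilla cells).

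To compare cell states, cells of both libraries were clustered together without the members, ribosomal, cell cycle and mitochondrial genes, and without genes at least 1.5-fold apart between the libraries. The 6 clusters are called by number and leading genes, since none was named as a cell type. Cluster 1, led by Camp, Ngp and S100a9 with mitotic genes such as Nusap1, held 164 Jumonji and 110 Renilla cells. Cluster 2 (Ung, Dtl) held 93 Jumonji and 147 Renilla cells. Cluster 3 (Wfdc17, Ctss, Ccl9) held 180 Jumonji and 35 Renilla cells. It had the most Ctss in Jumonji cells and is the cluster with the most Ctss named further on. Cluster 4 (Ccne1) held 28 Jumonji and 183 Renilla cells. Cluster 5 (Cdc20, Ccnb1) held 18 Jumonji and 127 Renilla cells, and cluster 6 (Ccne2, Clspn) 92 Jumonji and 6 Renilla cells. Clusters 5 and 6 have under 20 cells of a library and may be that library rather than a state. Cells of 1 cluster were not alike in both libraries, as Ctss in cluster 3 was at 198 CPM in Jumonji and 29.2 CPM in Renilla cells. In the 6 Renilla cells of cluster 6 it was higher, at 73.8 CPM.

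The lower mitochondrial sum was present within 3 of the 4 large clusters at about its size over all cells and was smaller in cluster 3. In cluster 1 it was 25501 CPM in Jumonji and 33287 CPM in Renilla cells, a log2 ratio of -0.38 (-0.40 to -0.37). In cluster 2 it was at -0.34 and in cluster 4 at -0.34. In cluster 3 it was 30190 CPM in Jumonji and 33071 CPM in Renilla cells, a log2 ratio of -0.13 (-0.15 to -0.11). Cluster 5 was at -0.39, with 18 Jumonji cells, and cluster 6 at 0.01 with 6 Renilla cells. The nuclear sum was nearly level in the 4 large clusters, at -0.03, -0.02, -0.06 and 0.01 for clusters 1 to 4.

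The mitochondrial over nuclear ratio was 0.954 in Jumonji and 1.22 in Renilla cells of cluster 1, a log2 difference of -0.36 (-0.37 to -0.34). In cluster 2 it was 0.903 in Jumonji and 1.12 in Renilla cells (-0.32), and in cluster 4 it was 1.02 in Jumonji and 1.304 in Renilla cells (-0.35). In cluster 3 it was 1.24 in Jumonji and 1.302 in Renilla cells (-0.07, -0.10 to -0.04). The intervals of cluster 3 and of clusters 1, 2 and 4 did not overlap. They come from pooled UMIs and leave out the spread between cells, which is given below. Cluster 3 also had fewer UMIs per cell, with medians of 14196 in Jumonji and 19348 in Renilla cells. Its nuclear RNA Malat1 was at 5730 CPM in Jumonji and 6154 CPM in Renilla cells, the highest of clusters 1 to 4 in both libraries. The part of these in the smaller difference was not tested.

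**Figure D3:**
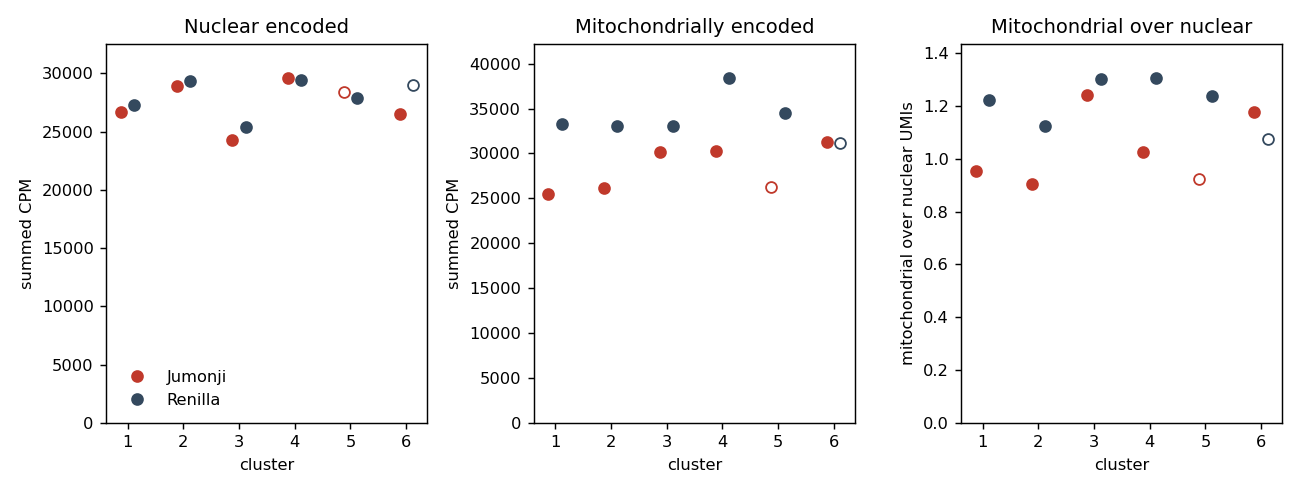
Summed CPM of the nuclear members, of the mitochondrial members, and the mitochondrial over nuclear UMI ratio, by cluster and library; open points have under 20 cells. The nuclear sums of both libraries lie close together in clusters 1 to 4, while the mitochondrial sums of Jumonji cells lie below those of Renilla cells, by least among these 4 in cluster 3 (30190 CPM in Jumonji and 33071 CPM in Renilla cells).

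Single cells showed the same order. The median cell had 1.00 mitochondrial UMIs per nuclear member UMI in the Jumonji library (quartiles 0.865 and 1.25) and 1.19 in the Renilla library (quartiles 1.06 and 1.41). In cluster 2 the medians were 0.875 in Jumonji and 1.13 in Renilla cells, and the interquartile ranges did not overlap. In cluster 3 they were 1.22 in Jumonji and 1.28 in Renilla cells, with wide overlap. After thinning each cell to 10000 UMIs, which left out 55 Jumonji and 29 Renilla cells, the median cell held 263 mitochondrial member UMIs in Jumonji and 339 in Renilla cells. The median number of nuclear member UMIs was then 267 in Jumonji and 285 in Renilla cells. Across thinned cells, the Spearman correlation of the 2 sets was -0.02 over 520 Jumonji cells and 0.26 over 579 Renilla cells. These cells share a library and a fixed total. A cell's nuclear share went with its depth at 0.50 in Jumonji and 0.03 in Renilla cells, and its mitochondrial share at -0.23 in Jumonji and -0.48 in Renilla cells.

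**Figure D4:**
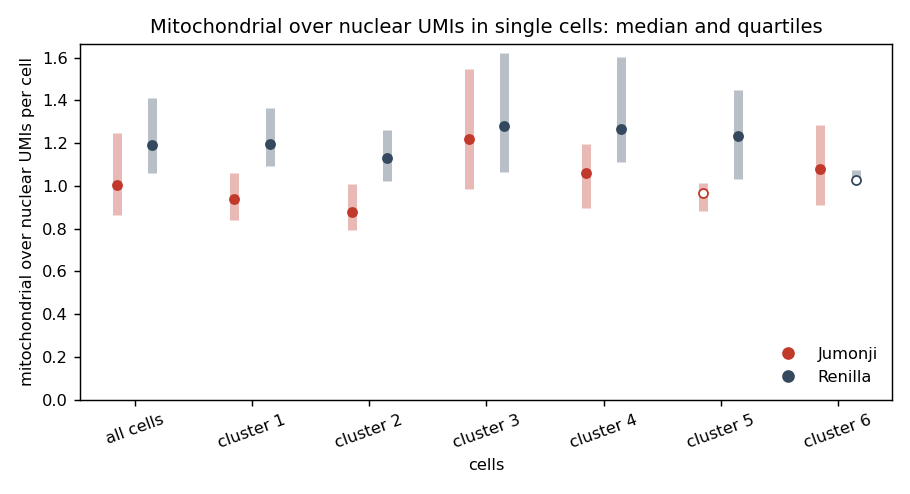
Mitochondrial over nuclear member UMIs in single cells, as the median (point) and the quartiles (bar), for all kept cells and by cluster; open points have under 20 cells. Jumonji cells lie lower than Renilla cells in clusters 1, 2, 4 and 5, while in cluster 3 the bars overlap widely, with medians of 1.22 in Jumonji and 1.28 in Renilla cells.

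By cell cycle phase, called from cells thinned to 10000 UMIs, the mitochondrial sum was at -0.21 in G1 cells, -0.36 in S and -0.36 in G2/M. The nuclear sum was at -0.13, -0.08 and -0.04 in the same order. The log2 difference of the mitochondrial over nuclear ratio was -0.08 (-0.10 to -0.05) in G1, -0.28 in S and -0.33 in G2/M. G1 held 25.4% of Jumonji and 10.4% of Renilla cells, and cluster 3 was mostly G1 in both libraries, at 79.6% of its Jumonji and 78.8% of its Renilla cells. Phase and cluster thus overlap, and their parts cannot be told apart here. mt-Co1 in G1 was at 4273 CPM in Jumonji and 3969 CPM in Renilla cells (0.11), and in cluster 3 at 4810 CPM in Jumonji and 4388 CPM in Renilla cells (0.13). It was at -0.26, -0.25 and -0.25 in clusters 1, 2 and 4.

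Some genes kept their direction in every state. Atp5o was lower in Jumonji cells in each of the 6 clusters, at -0.76, -0.71, -0.85 and -0.75 in clusters 1 to 4. In cluster 3 it had 155 CPM in Jumonji and 281 CPM in Renilla cells, and in cluster 4, where both libraries had most among these 4, it had 275 CPM in Jumonji and 463 CPM in Renilla cells. Ndufa1 was higher in Jumonji cells in each of the 6 clusters, at 0.91, 0.60, 0.76 and 0.42 in clusters 1 to 4. Cox6a1 was at -0.44, -0.36, -0.55 and -0.46. Atp5g1 was at -0.47, -0.39, -0.64 and -0.25 in clusters 1 to 4, beside -0.61 over all cells. In all 4 large clusters, 32 members were below 0 (35.6%, 24 nuclear and 8 mitochondrial), against 15.9% of all genes and 20% of the abundant ones. Above 0 in all 4 were 23 members (25.6%), all nuclear, against 18.8% of all genes and 27.8% of the abundant ones. Of the 85 abundant members alone, 36.5% were below 0 and 25.9% above 0 in all 4. Cox7a2l, at -0.03 over all cells, was among the 32, at -0.20 to -0.39.

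In cluster 3 most nuclear members stood lower than in other cells, as did most genes. Its nuclear sum was the lowest of clusters 1 to 4 in each, at 24288 CPM in Jumonji and 25398 CPM in Renilla cells. Against the other cells of the same library, 64 of 77 nuclear members were lower in Jumonji cells (83.1%) and 60 in Renilla cells (77.9%), 57 of them in both (74%). Of all genes, 58.2% were lower in Jumonji cells, 60.2% in Renilla cells and 46.7% in both, and of the abundant ones 64.3% in Jumonji cells, 66.5% in Renilla cells and 58% in both. The median log2 ratio of cluster 3 over other cells was -0.25 in Jumonji and -0.22 in Renilla cells for the nuclear members, beside -0.20 in Jumonji and -0.24 in Renilla cells for the abundant genes. The genes named next were picked after their values were seen. Ndufa5, an accessory subunit of the peripheral arm, had 61.4 CPM in cluster 3 against 120 CPM in other Jumonji cells (-0.97), and 43.8 CPM in cluster 3 against 101 CPM in other Renilla cells (-1.21). Atp5g1 was at -0.81 in Jumonji and -0.68 in Renilla cells, and Ndufv1, which binds NADH, at -0.70 in Jumonji and -0.80 in Renilla cells.

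Some members went the other way. Cox7a2l, which links complexes III and IV into supercomplexes, had 755 CPM in cluster 3 against 494 CPM in other Jumonji cells (0.61, 0.54 to 0.69), and 881 CPM in cluster 3 against 544 CPM in other Renilla cells (0.70, 0.57 to 0.82). Uqcrh was at 0.37 in both libraries, and Cox7a1 at 1.19 in Jumonji and 1.36 in Renilla cells from few UMIs. The mitochondrial members had a median of 0.12 in Jumonji cells, with 5 of 13 below 0, and of -0.08 in Renilla cells, with 11 of 13 below 0. mt-Co1 was higher in cluster 3 in both, at 0.50 in Jumonji and 0.15 in Renilla cells, and mt-Nd1 lower in both, at -0.23 in Jumonji and -0.34 in Renilla cells. Atp5g1 made up 34.6% of the ring transcripts in cluster 3 of Jumonji cells and 40.1% in that of Renilla cells, below its share over all cells in each.

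**Figure D5:**
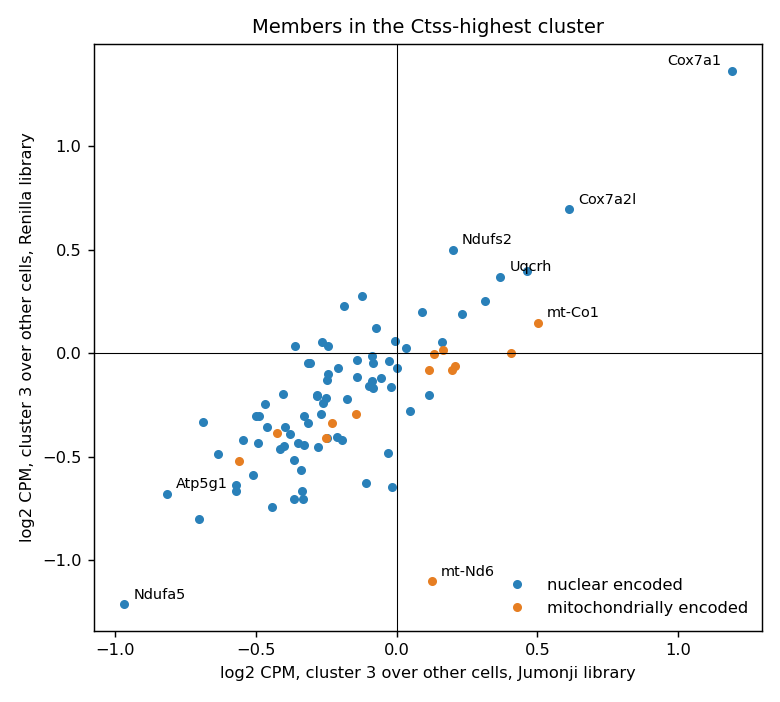
Log2 CPM of each member in cluster 3 over all other cells of the same library, Jumonji on the horizontal and Renilla on the vertical axis. Ndufa5 and Atp5g1 lie at the low end and Cox7a1 and Cox7a2l at the high end in both libraries, while mt-Nd6 (few UMIs) lies apart.

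The other lists of mitochondrial genes had medians between -0.29 and -0.25. The tricarboxylic acid cycle, which feeds the chain, had a median log2 ratio of -0.29 over 14 genes. Below 0 were 14 of 14, beside 56.0% of all genes, from Suclg2 at -0.90 to Suclg1 at -0.19. At least 1.5-fold lower was 1 of them (7.14%, against 9.09% of all genes). Of 46 assembly factors, 5 were at least 1.5-fold lower (10.9%, near the 9.09% of all genes) and 1 higher, with a median of -0.29. Nubpl, which delivers iron-sulfur clusters to complex I, was lowest at -0.95, and Cox15, of haem A synthesis, highest at 0.61. The 19 other subunits and carriers had a median of -0.29, with 1 at least 1.5-fold lower (5.26%), Etfb at -0.60, and Coq2 highest at 0.39.

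Of 35 genes of mitochondrial DNA maintenance, transcription, RNA processing and translation, 9 were at least 1.5-fold lower (25.7%, against 9.09% of all genes) and 0 higher, with a median of -0.29. The lowest was Peo1, the mitochondrial helicase, at -0.88, and the highest Mterf2 at 0.44. Of 76 mitochondrial ribosomal protein genes, 66 were below 0, beside 56.0% of all genes, with a median of -0.25. At least 1.5-fold lower were 2 of them (2.63%, against 9.09% of all genes). Mrps34 was at -1.13, past 2-fold, and Mrpl52 was highest at 0.48. Mitochondrial import genes had a median of -0.28 over 22, from Timm8a1 at -0.94 to Timm23 at 0.31. Of these, 4 were at least 1.5-fold lower (18.2%, against 9.09% of all genes). The 105 cytosolic ribosomal protein genes, for comparison, had a median of -0.02, with 1 at least 1.5-fold higher (Rps27rt at 0.80) and 1 lower (Rpl21-ps4 at -0.65).

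Of 7 measured transcriptional regulators of the nuclear members, Pprc1, a coactivator of the PGC-1 family, was lowest at 7.96 CPM in Jumonji and 15.5 CPM in Renilla cells (-0.96, -1.32 to -0.62). Nrf1 was at 26.1 CPM in Jumonji and 31.0 CPM in Renilla cells (-0.25), and Gabpa, an ETS factor, at 20.9 CPM in Jumonji and 20.7 CPM in Renilla cells (0.01). Yy1 was highest, at 53.8 CPM in Jumonji and 43.7 CPM in Renilla cells (0.30, 0.14 to 0.46). The median over the 7 was -0.21. These medians stand beside -0.06 over all 9964 genes, -0.09 over the nuclear members and -0.33 over the mitochondrial members.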

How the data were processed

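Single-cell libraries were made with the Chromium 3′ kit, version 2 chemistry, per the labels' protocols. The deposited values are raw UMI counts per gene and barcode, made with Cell Ranger 1.3.1 on mm10, per the submitters' processing notes. For the annotation release, strand setting and cell calling, the rule is not given in the sources used here. Coordinates are from GENCODE M21, which holds all 90 members, and start regions from RefSeq (GRCm38.p6).

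The members and gene lists were chosen with earlier results of these data known. Kept barcodes had at least 500 genes and no more than 10% mitochondrial UMIs, and doublets marked by Scrublet (4 Jumonji and 10 Renilla cells) were kept too. UMIs were summed per library or state and scaled to CPM. The log2 ratio has an exact 95% conditional binomial interval, shares have Clopper-Pearson intervals, and the ratio of 2 sums has a normal interval from its 4 counts. Below 50 UMIs no ratio of a gene over all cells is printed, and a count of 0 in a cluster was set to 3. Clustering used scanpy 1.11.5 and leidenalg 0.10.2 (2000 variable genes, 30 components, 15 neighbours, resolution 0.6), with 4291 genes left out. Named are all mitochondrial members, those at least 1.5-fold apart, isoform families, the 2 most abundant, 2 highest and 2 lowest of each complex, and the extremes of each list. Other members were named for their role after their values were seen. The ratio and interval were tested on simulated counts that held counting error alone. That test cannot show how cells, cultures or guides vary.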

Additional observations from a re-analysis of the deposited data

Results flagged for a closer look

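The barcodes left out for a mitochondrial share above 10% (77 in the Jumonji and 43 in the Renilla library) entered the report's values only under the alternative with all barcodes. The sums of the nuclear and mitochondrial members, these sums by complex and the members at least 1.5-fold apart were compared in them. Of these values, 3 stood higher in the Jumonji than in the Renilla library with intervals that did not overlap. Subsets and regroupings of complexes I and IV are not counted here. The sum of all nuclear members was nearly level, at 20322 CPM in excluded Jumonji and 20219 CPM in excluded Renilla barcodes. The nuclear sum of complex I was 9194 CPM in excluded Jumonji and 6893 CPM in excluded Renilla barcodes, the nuclear sum of complex IV 5069 CPM in Jumonji and 4545 CPM in Renilla barcodes, and Ndufa1 303 CPM in Jumonji and 139 CPM in Renilla barcodes. The complex I sum drew on a few genes, picked here after their values were seen. Ndufa4 had 1773 CPM in excluded Jumonji and 447 CPM in excluded Renilla barcodes, Ndufa13 1337 CPM in Jumonji and 574 CPM in Renilla barcodes, and Ndufc2 574 CPM in Jumonji and 135 CPM in Renilla barcodes. Ndufa4 was seen in 75 of the 77 excluded Jumonji barcodes, with at most 30 UMIs in any of them. Nuclear complex III went the other way, at 1529 CPM in excluded Jumonji and 2122 CPM in excluded Renilla barcodes. So did nuclear complex V, at 4082 CPM in excluded Jumonji and 6311 CPM in excluded Renilla barcodes. Atp5o had 90.1 CPM in Jumonji and 297 CPM in Renilla barcodes. Of the 77 nuclear members, 30 were higher in the excluded Jumonji barcodes. The share over all genes was not counted in these barcodes, so whether this number is unusual is not known. These barcodes had a median of 4804 UMIs in the Jumonji and 5694 UMIs in the Renilla library.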

How the results depend on the processing

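No member or sum at least 1.5-fold apart changed sign under any alternative tried. Of the 70 members whose interval leaves out 0, some changed sign: mt-Nd3 to 0.03 with all barcodes, Ndufa5 as a mean over cells, and mt-Nd3, Ndufa12 (0.11), Ndufb6 and Atp5j2 (0.09) as a mean over clusters. Counting values within error too, up to 13 of 99 changed sign. Atp5o was short of 2-fold with at most 5% mitochondrial UMIs (-0.98), the size factor (-0.95), without doublets (-0.99), without the cluster with the most Ctss (-0.93) and as a mean over clusters (-0.77), where mt-Nd6 was too (-0.77). The log2 ratio of the nuclear encoded sum was -0.0763 with at most 5% mitochondrial UMIs, -0.0942 with a total without mitochondrial UMIs, -0.0262 with the median-of-ratios size factor, -0.0985 after thinning, -0.12 as a mean over cells, -0.0550 without the cluster with the most Ctss and -0.0271 as a mean over clusters. Under the same settings but the mean over cells, the mitochondrially encoded sum was at -0.31, -0.34, -0.27, -0.35, -0.36 and -0.30, and it was at -0.23 with all deposited barcodes. The log2 difference of the mitochondrial over nuclear sum was -0.14 with all barcodes, -0.20 as a mean over cells, -0.31 without the cluster with the most Ctss and -0.27 as a mean over clusters. The complex I nuclear sum was 0.00 with the size factor and 0.01 as a mean over clusters. Members at least 1.5-fold lower numbered 5 as a mean over cells, with Ndufs6 at -0.59 and mt-Nd1 at -0.61 added. They numbered 2 with the size factor, where Atp5g1 was at -0.56, and 2 without the cluster with the most Ctss, where it was at -0.50. Members at least 1.5-fold higher stayed at 2, or 3 with a minimum of 1 UMI. Without cells marked as doublets, 99 of 99 other values moved by less than their interval. Low-count members (mt-Nd6, mt-Atp8, Cox7a1, Atp5s, Atp5sl) are limited by depth, and 1 library for each sgRNA limits all. The causes of these shifts were not tested. No paired analysis was possible because each group has 1 library.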
